A study of Mus musculus with 8 samples.

Results

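The genes examined here encode ligands with which antigen-presenting cells give T cells co-stimulatory or co-inhibitory signals. They are Cd40, Cd80, Cd86, Cd83, Icosl, Tnfsf4, Cd70, Cd274 and Pdcd1lg2. They were taken by symbol from the platform annotation, using probe sets (groups of array probes against 1 transcript) that carry a single symbol. All 9 were measured, by 16 of the 34945 single-symbol probe sets, among 18193 genes in all. Where a gene had several probe sets, the brightest over the 8 arrays stood for the gene and the others are given beside it.

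The cells were CD11b+ cells from NOD mice, a strain that develops autoimmune diabetes spontaneously, and of NOD.Idd3 mice, a congenic strain that differs from NOD at the Idd3 diabetes locus on chromosome 3. The groups were NOD.Idd3 cells with peptidoglycan (PGN), NOD cells with PGN, unstimulated NOD.Idd3 cells and unstimulated NOD cells. PGN, a polymer of the bacterial cell wall, was given at 5 µg/ml for 4 h at 37 °C, and unstimulated cells stayed in medium alone. Each group had 2 arrays, labelled as biological replicates. The sources used here do not give the tissue, the age and sex of the mice, or whether animals were pooled. The p-values therefore reflect spread among these arrays, some of which may be technical.

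T cells need a signal from their antigen receptor and a second, co-stimulatory signal. CD80 and CD86 on the presenting cell engage CD28, which activates the T cell, or CTLA-4, which restrains it. ICOS ligand, OX40 ligand (Tnfsf4) and CD70 engage ICOS, OX40 and CD27 and sustain activated T cells, while PD-L1 (Cd274) and PD-L2 (Pdcd1lg2) engage PD-1 and dampen them. CD40 works in the other direction: it sits on the presenting cell, receives CD40 ligand from T cells and activates NF-kB. In myeloid cells, Toll-like receptors and NOD proteins that sense bacterial products are known to raise several of these molecules.

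All values below are log2 of the deposited linear intensity, so a difference of 1 is a fold change of 2. Differences were tested with limma across all 18193 genes, and a gene passed when its p, adjusted by Benjamini-Hochberg over all genes, was under 0.05. Errors beside changes are limma standard errors (SE). The arrays measure RNA, not protein at the cell surface. Array medians over all 45101 probe sets lay between 5.42 and 5.50. Over the single-symbol probe sets the array medians lay between 5.82 and 6.01 and the 25th percentiles between 4.06 and 4.26. In the CD11b+ cells, Itgam, which encodes CD11b, averaged 8.33 with PGN and 8.82 unstimulated, and its partner subunit gene Itgb2 averaged 13.17 and 13.30 in the same groups.

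The probe sets that stood for these genes ranked from the middle to the top of the arrays. Cd40 and Cd83 ranked at percentiles 96.1 to 99.7 of the single-symbol probe sets on every array. Pdcd1lg2 ranked at percentiles 66.0 to 86.4 and Cd70 at 39.1 to 64.5. Tnfsf4 had the lowest rank, at percentiles 35.8 to 58.6. Levels of different genes were not otherwise compared, since probe sets bind with different strength.

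**Figure D1:**
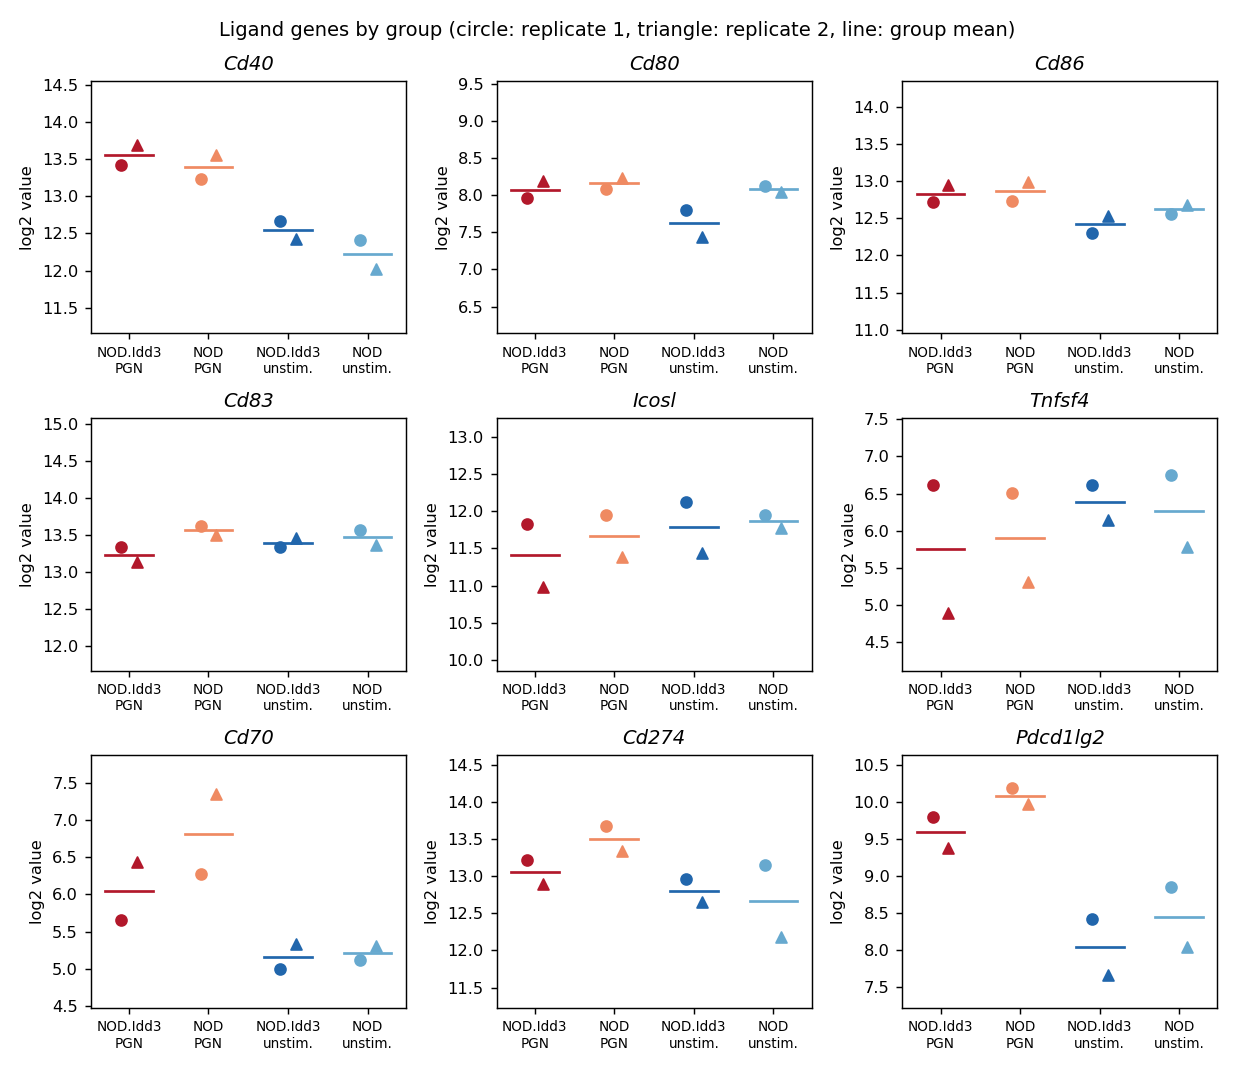
Log2 value of the 9 ligand genes on each of the 8 arrays, 1 panel per gene, with groups in the order NOD.Idd3 PGN, NOD PGN, NOD.Idd3 unstimulated and NOD unstimulated. Circles are replicate 1, triangles replicate 2, and lines group means. Cd40, Cd70 and Pdcd1lg2 lie higher on the 4 PGN arrays than on the 4 unstimulated arrays, and Tnfsf4 has its circle above its triangle in all 4 groups.

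The first comparison asked what PGN did to these genes over both strains together. Cd40, Cd70 and Pdcd1lg2 rose, by 2.14-fold, 2.37-fold and 3.0-fold. The other 6 genes did not pass in either direction. Over all genes 11.3% passed, 4.86% higher and 6.40% lower. The median change of the 9 genes was 0.33, against 0.05 over all genes, and 6 of the 9 were positive, beside 56.2% of all genes. In 4 of the 9 the PGN arrays and unstimulated arrays did not overlap. The share of all genes for which this holds was not counted, so this count has no reference.

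Markers of several cell types passed with PGN in the same arrays, beside the 11.3% over all genes. Of 10 measured neutrophil markers 3 fell (Mmp9, Mmp8 and Cxcr2), as did 2 of 6 platelet markers. Ppbp fell by 2.67 and Pf4 fell by 1.55 on the log2 scale. The other platelet markers, Gp6 (0.59), Itga2b (0.32), Gp9 (-0.12) and Itgb3 (-0.62), had changes of both signs and did not pass. Of 6 plasma cell markers 3 rose, namely Sdc1 (2.04 ± 0.33), Irf4 (1.67 ± 0.36) and Prdm1 (0.73 ± 0.20). The rest of that list, Xbp1 (0.16), Jchain (-0.23) and Mzb1 (-0.29), did not pass. T cell markers passed in 2 of 13 cases, where Cd3d fell by 1.48 and Il7r rose by 1.04. NK cell markers passed in 2 of 7 cases, where Gzmb rose by 1.87 and Prf1 fell by 0.52. Il2ra, the only 1 of 5 regulatory T cell markers that passed, rose by 2.69, and the others changed by 0.22 to 0.68. Siglecf, the only 1 of 9 eosinophil, mast cell and basophil markers that passed, fell by 1.16. In that list Ccr3 (-0.68) and Ms4a2 (-0.13) also had negative changes, and all others had positive ones. No marker of monocytes and macrophages, of B cells or of erythroid cells passed. With the replicate number as a block in limma, 4 of 11 B cell markers passed, 3 of them lower, where 3082 of 18193 genes passed. Of 9 dendritic cell markers 1 passed, a share near that over all genes. That marker, Ccr7, a chemokine receptor gene of maturing dendritic cells, changed by 1.64 ± 0.22 (adjusted p = 0.00237). The rest of that list changed by -0.62 (Itgax) to 0.51 (Ccl22), and Zbtb46 (-0.13) and Cd209a (-0.03) were negative too. The summed linear value of the 9 dendritic cell markers was 10220 to 10970 in NOD.Idd3 with PGN and 6483 to 8463 unstimulated. In NOD it was 13480 to 17450 with PGN and 11470 to 13880 unstimulated. These sums include Ccr7, which averaged 12.10 with PGN and 10.09 unstimulated in NOD.Idd3. In NOD Ccr7 averaged 12.34 with PGN and 11.07 unstimulated. The deposited values carry no detection calls, so no marker could be called absent. In bulk samples such as these, fewer cells of a type and less RNA per cell cannot be told apart, and the part of these markers in the ligand changes was not tested.

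Cd40, the receptor for T cell help, had 13.42 and 13.69 in NOD.Idd3 with PGN (replicates 1 and 2), against 12.66 and 12.42 unstimulated. In NOD it had 13.24 and 13.56 with PGN, against 12.42 and 12.02 unstimulated. Every PGN array lay above every unstimulated array. The change averaged over strains was 1.10 ± 0.17 (95% interval 0.71 to 1.48, adjusted p = 0.00445, 4 arrays per condition), with 0.79 within replicate 1 and 1.41 within replicate 2. Ordered by level, the PGN groups of NOD.Idd3 and NOD overlapped, and both stood above unstimulated NOD.Idd3, whose mean was 0.33 above that of unstimulated NOD, with arrays that nearly met.

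All 3 Cd40 probe sets rose. With every single-symbol probe set tested as a feature of its own, 11.3% passed, and the other Cd40 probe sets changed by 1.44 ± 0.19 (adjusted p = 0.00230) and 1.18 ± 0.21 (adjusted p = 0.00854). The probe set with the larger change had 12.52 and 12.80 in NOD.Idd3 with PGN, against 11.57 and 11.24 unstimulated. NOD cells had 12.37 and 12.66 with PGN, against 11.21 and 10.58 unstimulated. The PGN arrays were again all higher than the unstimulated arrays. Of the 16 probe sets of the 9 genes, 11 had a positive change and 5 passed, namely the 3 of Cd40 and those of Cd70 and Pdcd1lg2.

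**Figure D2:**
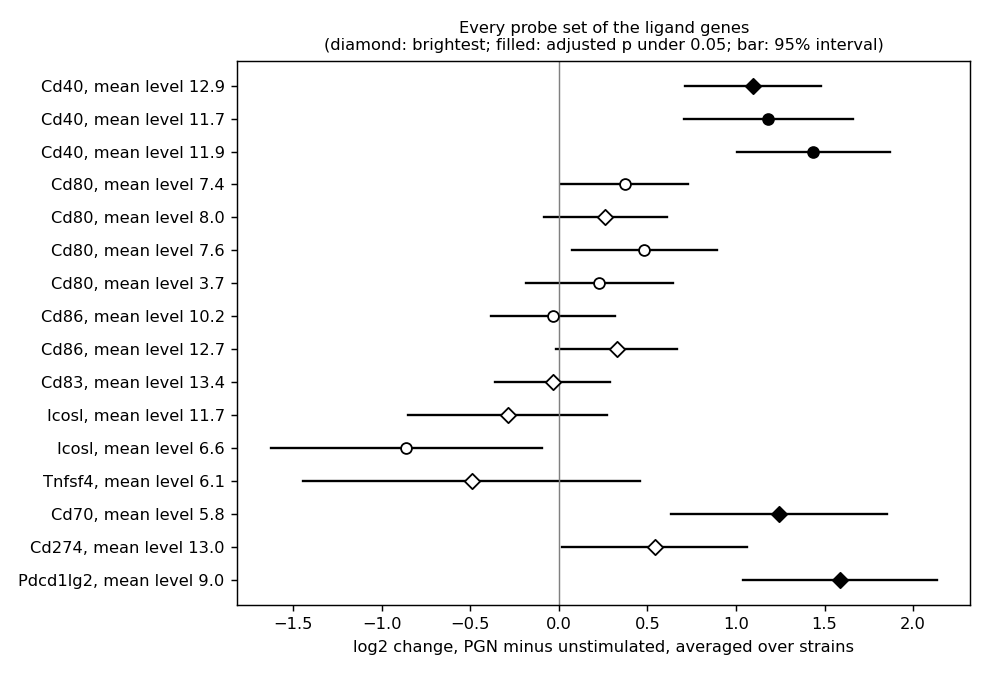
Log2 change with PGN averaged over strains (horizontal axis, log2 units) for each of the 16 probe sets, with 95% intervals. Diamonds mark the brightest probe set of a gene and filled symbols an adjusted p under 0.05. The 3 Cd40 probe sets lie between 1.10 and 1.44, and the pair of Cd86 probe sets lies at 0.33 and -0.03.

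The B7 molecules CD80 and CD86, which engage CD28 and CTLA-4, did not pass. Cd80 had 7.96 and 8.19 in NOD.Idd3 with PGN, against 7.80 and 7.44 unstimulated. The NOD arrays had 8.09 and 8.23 with PGN, against 8.12 and 8.05 unstimulated. The NOD.Idd3 groups did not overlap, and the NOD groups did. Its averaged change was 0.26 ± 0.15 (95% interval -0.08 to 0.61, adjusted p = 0.329). The other 3 Cd80 probe sets gave 0.37 ± 0.16, 0.48 ± 0.18 and 0.23 ± 0.18, and none passed. The last of these was dim, at percentiles 11.3 to 24.4. By level the NOD.Idd3 unstimulated group was lowest and did not overlap with its next neighbour, while the other 3 groups overlapped with their neighbours.

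Cd86 had 12.72 and 12.95 in NOD.Idd3 with PGN, against 12.31 and 12.54 unstimulated. For NOD the values were 12.73 and 12.99 with PGN, against 12.56 and 12.68 unstimulated. Replicate 2 was higher in each group, by 0.12 to 0.26. All PGN arrays lay above all unstimulated arrays, yet the averaged change of 0.33 ± 0.15 did not pass (95% interval -0.02 to 0.67, adjusted p = 0.220). The second Cd86 probe set did not share this order. It had 9.98 and 9.83 in NOD.Idd3 with PGN, against 9.72 and 10.16 unstimulated, and 10.34 and 10.40 in NOD with PGN, against 10.43 and 10.37 unstimulated. Its change was -0.03 ± 0.15 (adjusted p = 0.925).

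Cd83 encodes a surface protein of mature dendritic cells, known in mice to protect MHC class II and CD86 from degradation. It had 13.33 and 13.13 in NOD.Idd3 with PGN, against 13.33 and 13.46 unstimulated. In NOD it had 13.62 and 13.50 with PGN, against 13.57 and 13.36 unstimulated. The values stayed within 0.49 of each other over the 8 arrays. The averaged change was -0.03 ± 0.14 (95% interval -0.36 to 0.29, adjusted p = 0.908). The gene lay at percentiles 99.1 to 99.5 of every array, where the brightest gene of any array stood at 15.17.

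Icosl, the ligand of ICOS, had 11.83 and 10.98 in NOD.Idd3 with PGN, against 12.13 and 11.44 unstimulated. NOD cells had 11.95 and 11.39 with PGN, against 11.95 and 11.78 unstimulated. All 4 groups overlapped with their neighbours in level, and replicate 1 was higher in each group by 0.17 to 0.85. The averaged change was -0.29 ± 0.25 (95% interval -0.85 to 0.28, adjusted p = 0.522). A second, dimmer probe set had 6.55 and 5.36 in NOD.Idd3 with PGN, against 7.09 and 6.38 unstimulated. It had 6.90 and 5.73 in NOD with PGN, against 7.44 and 7.08 unstimulated. Its change of -0.86 ± 0.34 was lower in both strains and did not pass (adjusted p = 0.152).

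Tnfsf4 and Cd70 are ligands of the TNF family that engage OX40 and CD27. Tnfsf4 had 6.62 and 4.89 in NOD.Idd3 with PGN, against 6.62 and 6.14 unstimulated. The NOD arrays had 6.50 and 5.31 with PGN, against 6.75 and 5.78 unstimulated. Replicate 1 exceeded replicate 2 in all 4 groups by 0.48 to 1.73, and all neighbouring groups overlapped. Its averaged change was -0.49 ± 0.42 (95% interval -1.45 to 0.47, adjusted p = 0.519), the widest interval among the 9 genes.

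Cd70 had 5.65 and 6.44 in NOD.Idd3 with PGN, against 4.99 and 5.33 unstimulated. For NOD the values were 6.27 and 7.36 with PGN, against 5.12 and 5.30 unstimulated. Every PGN array lay above every unstimulated array, and here replicate 2 was higher in all 4 groups, by 0.18 to 1.08. The averaged rise was 1.24 ± 0.27 (95% interval 0.63 to 1.86, adjusted p = 0.0200), with 0.91 within replicate 1 and 1.58 within replicate 2. The call was lost without 1 array in 5 of the 8 cases. When an unstimulated NOD.Idd3 array was left out, the adjusted p was 0.0759 (replicate 1) or 0.0505 (replicate 2), and when an unstimulated NOD array was left out it was 0.0503 or 0.0545. Without replicate 2 of NOD.Idd3 with PGN it was 0.0685. The unstimulated levels were 4.99 to 5.33, beside array 25th percentiles of up to 4.26 and medians of 5.82 to 6.01 over single-symbol probe sets.

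Cd274 and Pdcd1lg2, the ligands of PD-1, lie next to each other on chromosome 19 with 0 protein-coding genes between them, and only one of the pair passed. Their promoters are printed because the genes are neighbours of which one passed and the other did not, and the difference between their changes was not tested. RefSeq promoter windows (build GRCm38.p6, plus strand, 250 bases before to 50 after the start site) were on hand for 4 of the 9 genes, namely Cd80, Icosl, Cd274 and Pdcd1lg2. The Pdcd1lg2 window is chr19:29410669-29410968 and that of Cd274 is chr19:29367188-29367487. Capitals mark a match to the NF-kB consensus, which both strands of these bases fit.
Pdcd1lg2: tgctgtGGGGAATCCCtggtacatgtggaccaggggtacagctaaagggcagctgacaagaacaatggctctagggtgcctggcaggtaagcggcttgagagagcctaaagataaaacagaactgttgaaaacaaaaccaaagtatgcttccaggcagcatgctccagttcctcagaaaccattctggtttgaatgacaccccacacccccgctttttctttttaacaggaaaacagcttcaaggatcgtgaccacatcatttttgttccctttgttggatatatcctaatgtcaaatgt
Cd274: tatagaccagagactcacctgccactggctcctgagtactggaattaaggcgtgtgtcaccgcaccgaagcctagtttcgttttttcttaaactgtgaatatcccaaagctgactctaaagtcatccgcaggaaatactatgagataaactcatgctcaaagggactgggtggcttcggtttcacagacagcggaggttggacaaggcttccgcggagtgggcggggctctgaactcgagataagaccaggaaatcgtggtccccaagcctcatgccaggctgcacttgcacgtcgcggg
The match in Pdcd1lg2 spans the bases from 244 to 235 before the start site. Both strands of each window were searched for the NF-kB consensus, for AP-1 sites (TGANTCA) and for STAT sites (TTCNNNGAA), which do not overlap here. In the Cd274 window none of the 3 was found, and its start site lies 5331 bases inside the annotated gene span, so another start site is not covered. Among 32851 promoter windows 8.46% held the NF-kB consensus, 7.81% the AP-1 letters and 8.3% the STAT letters. Icosl, which did not pass, also had an NF-kB consensus match, from 111 to 102 bases before its start site, and Cd80 had an AP-1 match from 42 to 36 bases before its own. A match is a description of the letters only.

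Pdcd1lg2 had 9.80 and 9.38 in NOD.Idd3 with PGN, against 8.42 and 7.67 unstimulated. In NOD it had 10.18 and 9.97 with PGN, against 8.85 and 8.04 unstimulated. The PGN arrays were all above the unstimulated arrays, and the smallest gap between them was 0.52. Replicate 1 was higher in each group, by 0.21 to 0.81. The averaged rise was 1.59 ± 0.24 (95% interval 1.03 to 2.14, adjusted p = 0.00428), the largest of the 9 genes, with 1.35 within replicate 1 and 1.82 within replicate 2. Among the groups NOD with PGN was highest, above NOD.Idd3 with PGN without overlap, and the unstimulated groups were lowest and overlapped.

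Cd274 had 13.22 and 12.89 in NOD.Idd3 with PGN, against 12.96 and 12.65 unstimulated. NOD cells had 13.67 and 13.33 with PGN, against 13.15 and 12.18 unstimulated. The NOD.Idd3 groups overlapped and the NOD groups did not, with the low value of replicate 2 in unstimulated NOD apart from the other 7 arrays. Replicate 1 was higher in each group, by 0.31 to 0.97. The averaged change of 0.54 ± 0.23 did not pass (95% interval 0.02 to 1.07, adjusted p = 0.187). Over the alternative settings the averaged change ranged from 0.30 to 0.78, and the change in NOD alone from 0.35 to 1.32. The highest values came without replicate 1 of unstimulated NOD, which leaves the low array as the only one of its group.

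Within each strain Cd40, Cd70 and Pdcd1lg2 had positive changes, as over both strains. In NOD.Idd3, where 3.14% of genes passed, 0 of the 9 did so, with 3 at an unadjusted p under 0.05 and 2 passing with the replicate number as a block in limma. Pdcd1lg2 changed by 1.54 ± 0.34 (adjusted p = 0.0505, and 0.00676 with the block) and Cd40 by 1.01 ± 0.24 (adjusted p = 0.0635, and 0.0430 with the block). Cd70 changed by 0.88 ± 0.38 (adjusted p = 0.316). Without either unstimulated NOD array Pdcd1lg2 passed in NOD.Idd3 (adjusted p = 0.0362), since those arrays enter the common estimate of spread.

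In NOD, where 3.94% of genes passed, Cd40 rose by 1.18 ± 0.24 (adjusted p = 0.0324) and Pdcd1lg2 by 1.63 ± 0.34 (adjusted p = 0.0371). Cd70 missed the threshold at 1.60 ± 0.38 (adjusted p = 0.0564) and passed once the replicate block was added (adjusted p = 0.00846). Cd274 changed by 0.84 ± 0.33 (adjusted p = 0.207). Neither Cd40 nor Pdcd1lg2 passed in NOD without replicate 2 of unstimulated NOD (adjusted p = 0.214 and 0.238) or without replicates 1 and 2 of NOD with PGN (0.0585 and 0.156 for Cd40, 0.123 and 0.131 for Pdcd1lg2). Leaving out either unstimulated NOD.Idd3 array gave 0.0579 for Cd40, and leaving out either NOD.Idd3 array with PGN gave 0.0503 for Pdcd1lg2. Without replicate 1 of NOD with PGN Cd70 passed (2.14, adjusted p = 0.0338).

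**Figure D3:**
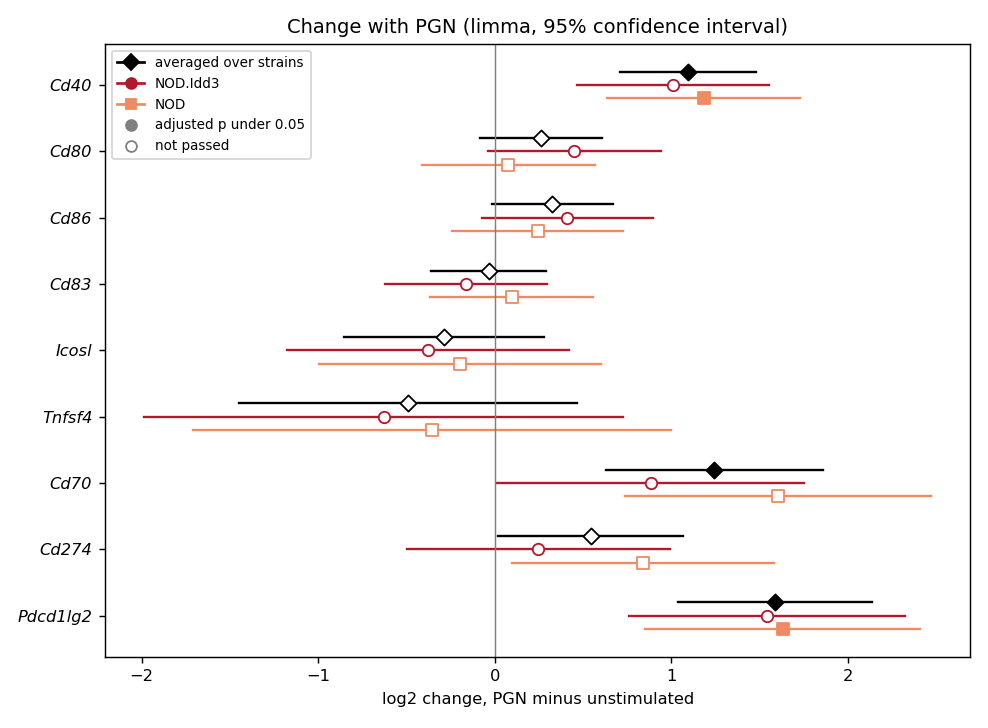
Log2 change with PGN (PGN minus unstimulated, horizontal axis) of each ligand gene averaged over strains (black diamonds), in NOD.Idd3 and in NOD, with 95% intervals. Filled symbols had an adjusted p under 0.05. Averaged over strains, Cd40, Cd70 and Pdcd1lg2 are filled. Within single strains, Cd40 and Pdcd1lg2 are filled in NOD only, at 1.18 and 1.63, beside 1.01 and 1.54 in NOD.Idd3.

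Whether the response differed between the strains was tested directly, as the change in NOD.Idd3 minus the change in NOD. No gene passed (0% of 18193 genes, with 314 at an unadjusted p under 0.05), and 0 of the 9 ligand genes reached an unadjusted p under 0.05. Cd40 and Pdcd1lg2, which passed in NOD and not in NOD.Idd3, had differences of -0.17 ± 0.34 (95% interval -0.94 to 0.60) and -0.09 ± 0.49 (-1.19 to 1.02). The widest gaps were those of Cd70 at -0.72 ± 0.54 (-1.95 to 0.51) and Cd274 at -0.59 ± 0.46 (-1.64 to 0.46). These intervals leave room for sizeable differences in either direction. The median difference of the 9 genes was -0.18, against 0.03 over all genes, and 2 of the 9 were positive, beside 53.6% of all genes.

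The strains were then compared at a given condition, as NOD.Idd3 minus NOD. With PGN, 8 of the 9 ligand genes had lower means in NOD.Idd3, and 0 passed. Over all genes 49.1% had a higher mean in NOD.Idd3. No gene passed in this contrast (0%, with 984 at an unadjusted p under 0.05). Cd274 and Pdcd1lg2 differed by -0.45 ± 0.33 and -0.49 ± 0.34, and Cd83 by -0.33 ± 0.20, with arrays that did not overlap between the strains (adjusted p = 0.851 each). Cd70 stood at -0.77 ± 0.38, with overlapping arrays. The median of the 9 was -0.26, against -0.01 over all genes.

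In unstimulated cells 0 of the 9 passed either, as for all genes (0%, with 611 at an unadjusted p under 0.05). Cd80 was 7.80 and 7.44 in NOD.Idd3 and 8.12 and 8.05 in NOD, a difference of -0.46 ± 0.22 (adjusted p = 1.00). Cd40 had the opposite sign at 0.33 ± 0.24, and 3 of the 9 genes were positive, beside 43.5% of all genes. Averaged over both conditions no gene passed (0%, with 1175 at an unadjusted p under 0.05), and the smallest adjusted p among the 9 genes was 0.822, for Pdcd1lg2 (-0.44 ± 0.24). Cd40 was the only one of the 9 with a higher mean in NOD.Idd3 (0.24 ± 0.17), and the strains' arrays overlapped for all 9. Of all genes 44.6% had a higher mean in NOD.Idd3.

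In the second Cd86 probe set, 1 of the 16 probe sets of these genes, the arrays did not overlap between the strains. Its 4 NOD.Idd3 arrays lay between 9.72 and 10.16 and its 4 NOD arrays between 10.34 and 10.43. The share of all probe sets with such arrays was not counted, so this has no reference. The difference was -0.46 ± 0.15 and did not pass (adjusted p = 0.588). The brightest Cd86 probe set differed by -0.11 ± 0.15, with overlapping arrays.

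Markers of other antigen-presenting cells also had lower means in NOD.Idd3, and calls among them depended on the replicate block. Averaged over both conditions, 44.6% of all genes had a higher mean in NOD.Idd3, and 27 of 18193 passed with the replicate block. Of 11 measured B cell markers 10 had lower means (median -1.24), 0 passed, and 5 passed with the replicate block, all lower. Their summed linear value was 1165 to 1868 in NOD.Idd3 with PGN, against 2305 to 4955 in NOD with PGN, and 1152 to 1880 in unstimulated NOD.Idd3, against 2600 to 6337 in unstimulated NOD. All 9 dendritic cell markers had lower means (median -0.57, 0 passed), with the sums given above for each group. Of 12 monocyte and macrophage markers 10 had lower means (median -0.19, 0 passed), with sums of 67400 to 77080 in NOD.Idd3 and 76010 to 79840 in NOD. Within that list Mrc1 (-1.56 ± 0.17), C1qc (-1.47 ± 0.22), C1qa (-1.42 ± 0.23), C1qb (-1.37 ± 0.15) and Mertk (-1.13 ± 0.19), genes of tissue macrophages, were well below the median, with arrays that did not overlap between the strains. With the replicate block 4 of them passed, Mrc1, C1qb and C1qc at an adjusted p of 0.0226 each and C1qa at 0.0486. In the same list Fcgr1 (0.54 ± 0.21, arrays not overlapping) and Ccr2 (0.43 ± 0.25, arrays overlapping) had higher means in NOD.Idd3. The share of all genes with arrays that did not overlap between the strains was not counted. The 3' minus 5' difference of the Gapdh control probe sets, a sign of RNA or labelling quality, was 0.72 to 0.80 in NOD.Idd3 and 0.88 to 1.16 in NOD. That of Actb overlapped, at 0.22 to 0.46 in NOD.Idd3 and 0.43 to 0.58 in NOD. B cells and dendritic cells also carry CD40, CD80, CD86 and ICOS ligand, and the part of these markers in the strain values was not tested.

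**Figure D4:**
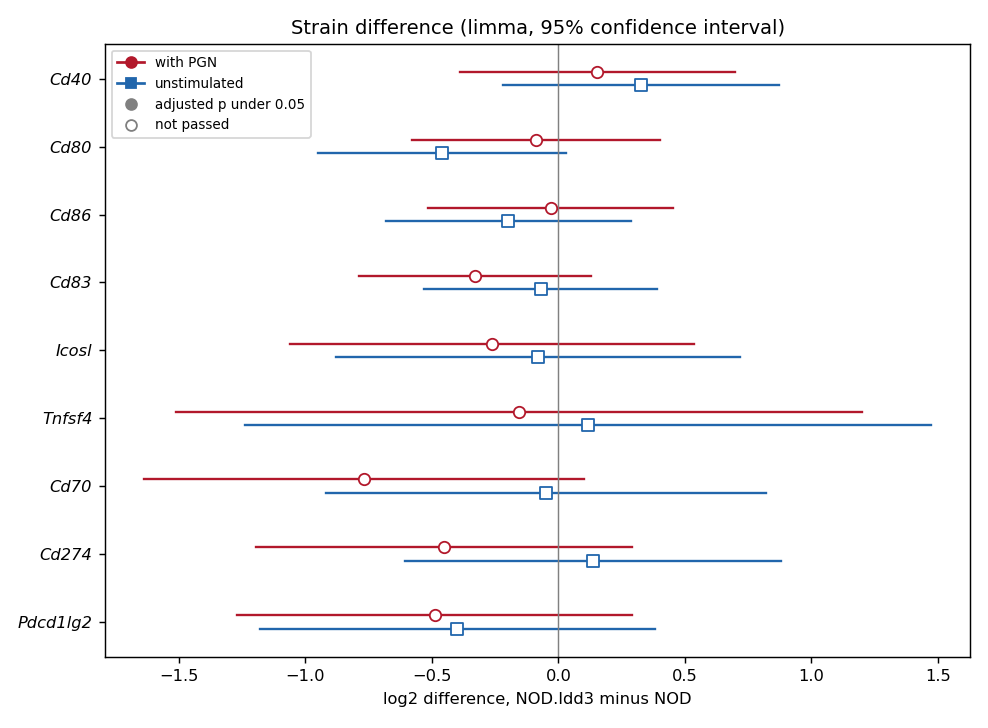
Log2 difference between the strains (NOD.Idd3 minus NOD, horizontal axis) of each ligand gene with PGN and unstimulated, with 95% intervals. All symbols are open, as 0 of the 9 genes passed in either condition, and 8 of the 9 differences with PGN lie below 0.

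Genes around the ligands were described from lists chosen by role. Among other ligands of the B7 and TNF families, 15 of 21 were measured, and with PGN 4 rose, 0 fell and 11 did not pass (median 0.22, against 0.05 over all genes). Tnfsf9, the ligand of 4-1BB, averaged 12.28 with PGN and 8.14 unstimulated, a change of 4.13 ± 0.16 (adjusted p = 9.58e-06). Cd200, which restrains myeloid cells through its receptor, rose by 2.63 ± 0.25, Cd276 (B7-H3) by 1.29 ± 0.19 and Pvr, a ligand of TIGIT and CD226, by 1.11 ± 0.16. Cd70 lies between Tnfsf9 and Tnfsf14 on chromosome 17, and Tnfsf14, the ligand LIGHT, changed by 1.02 ± 0.28, just short of the threshold, and passed once the replicate block was added (adjusted p = 0.0212).

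Of 18 receptors for these ligands 17 were measured, of which 2 rose, 2 fell and 13 did not pass (median 0.21), beside 4.86% of all genes higher and 6.40% lower. Tnfrsf9, which encodes 4-1BB, the receptor of Tnfsf9, rose by 1.68 ± 0.34 (adjusted p = 0.0149), and Tnfrsf8 rose by 1.08 ± 0.25 (adjusted p = 0.0275). Pdcd1, which encodes PD-1, averaged 5.48 with PGN and 6.50 unstimulated and fell by 1.02 on the log2 scale (adjusted p = 0.0366). Havcr2, which encodes TIM-3, fell by 0.60 (adjusted p = 0.0320).

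Of 19 CD40 signalling and NF-kB genes 16 were measured, and 7 rose, 1 fell and 8 did not pass (median 0.59), where 11.3% of all genes passed. Rel, a subunit of NF-kB, rose by 1.82 ± 0.14 and Nfkb2, a subunit of its non-canonical branch, by 1.13 ± 0.17. The NF-kB cofactor gene Bcl3 rose by 1.20 ± 0.17, and Traf1, which encodes an adaptor of TNF receptors, by 0.90 ± 0.14. Map3k14 encodes NIK, the kinase through which CD40 starts the non-canonical branch, and fell by 0.84.

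Of 31 genes known to regulate the level of these ligands 30 were measured, and 9 rose, 3 fell and 18 did not pass (median 0.49), again beside the 11.3% over all genes. Il10, whose product lowers co-stimulation by macrophages, had the largest rise at 6.52 ± 0.28. Socs3 rose by 2.42 ± 0.29 and Batf, a transcription factor gene, by 2.70 ± 0.38. Ifngr1, a chain of the interferon-gamma receptor, fell by 0.96. Cmtm6, whose product keeps PD-L1 at the cell surface, averaged 11.05 with PGN and 11.81 unstimulated and fell by 0.76 (adjusted p = 0.00920). Marchf1, which encodes the ubiquitin ligase that removes CD86 and MHC class II from the surface, changed by 0.01. Of 17 antigen presentation genes 16 were measured, and 1 rose, 1 fell and 14 did not pass (median -0.09), a share near the 11.3% over all genes. Nlrc5, a regulator of MHC class I genes, rose by 1.08 ± 0.26 and Psmb9, an immunoproteasome subunit gene, fell by 0.85.

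**Figure D5:**
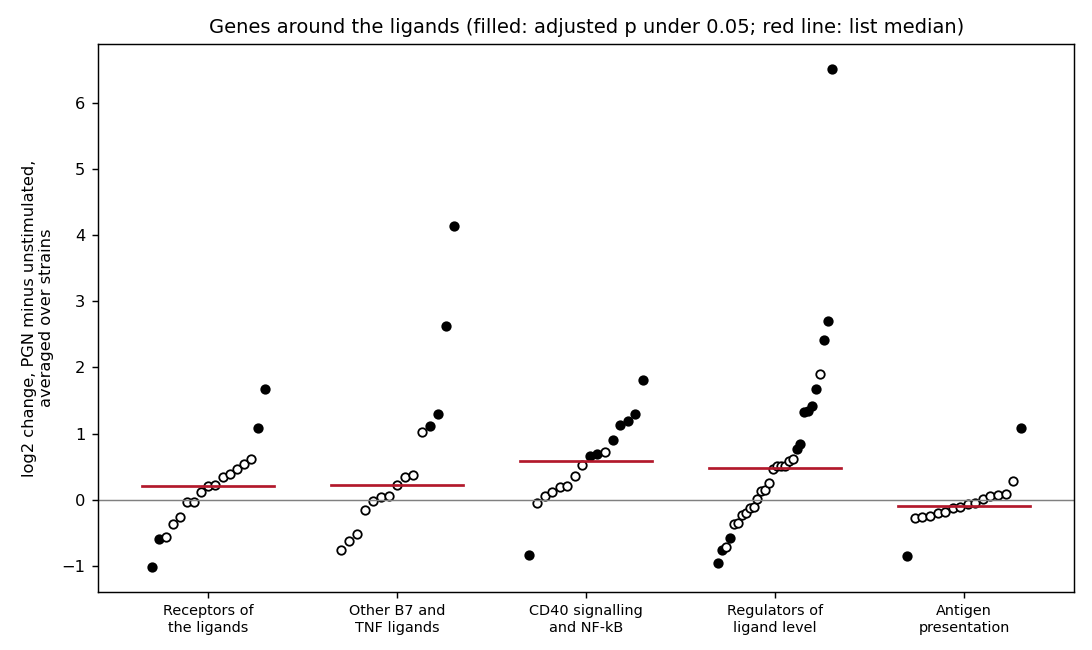
Log2 change with PGN averaged over strains (vertical axis) of each measured gene in 5 lists around the ligands, 1 point per gene, filled where the adjusted p was under 0.05. The largest changes are Il10 at 6.52 and Tnfsf9 at 4.13, and antigen presentation genes lie around a median of -0.09.

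For each gene that passed with PGN, the genes with the closest pattern over the 8 arrays were found by Pearson's r among the genes whose mean lay above the median of all genes (9095 or 9096 candidates). Cd40 was most like Iqsec2 (r = 0.993), Slc23a2 (0.992) and Mmp14 (0.992), which changed by 1.62, 0.89 and 2.59 with PGN. Pdcd1lg2 was most like Ezr (r = 0.997), Ppp1r15a (0.994) and Crtc2 (0.992), with changes of 0.79, 1.62 and 0.93. Cd70 was most like Gata2 (r = 0.967), Tmem189 (0.962) and Specc1l (0.961), with changes of 0.59, 0.49 and 0.91. The points are 8 arrays that all genes share, with their PGN groups and replicate numbers, and these correlations are descriptions picked as the highest of many.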

How the data were processed

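RNA of CD11b+ cells was measured on 8 single-channel arrays, with groups and replicate numbers taken from the labels. The authors deposited 1 intensity per probe set and array, made with RMA per the submitters' processing notes; the sources used here give neither its version nor the chip definition. RMA gives log2 values, and the deposited intensity values are linear (3.97 to 42910, median 44.0), so log2 was taken with no further normalization. Of 45101 probe sets, 64 controls, 9160 without a symbol and 932 with several symbols were left out. Each of the 18193 genes was represented by its brightest single-symbol probe set, and 34741 of 34945 such probe sets matched RefSeq (GRCm38.p6).

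Contrasts of the 4 group means were fitted to all genes in R 4.3.3 by limma 3.58.1 (functions lmFit and eBayes, 4 residual and 4.69 prior degrees of freedom), with Benjamini-Hochberg adjustment within each contrast and a threshold of 0.05. The code was tested on simulated data. The number of arrays limits the precision.

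The main fit had no term for the replicate number, so its errors and p-values do not use any pairing of arrays. Replicate numbers may pair the arrays, since replicate 1 array names share a date. The differences between replicates 1 and 2 also correlated across genes between groups (r = 0.167 to 0.415 over 6 pairs of groups). A replicate block was an alternative, beside an array-name suffix term, a variance trend, a filter on dim genes, other choices of probe sets, a further quantile normalization, an added constant of 16, leaving out each array, and fits of only the 4 arrays compared.

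Named were all 9 ligand genes with every probe set, up to 4 genes of each list by smallest p for the averaged PGN effect and others that passed, and the 3 genes most like each ligand gene that passed. Tnfsf14, Marchf1 and the cell type markers named were chosen after their values were seen. The ligand genes, lists and markers were chosen with earlier results of these data known. List genes without a single-symbol probe set were not analysed here.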

Additional observations from a re-analysis of the deposited data

How the results depend on the processing

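Over 18 alternative settings, of which 8 leave out 1 array, the 9 ligand genes gave 1107 values. Of these 1022 kept direction and side of the threshold, 21 no longer passed, 18 newly passed, 46 changed sign without passing in either setting, and 0 that passed were reversed. Cd40 and Pdcd1lg2 passed for the averaged PGN effect in 17 of 17 alternatives (adjusted p from 0.000804 to 0.0264 and from 0.000489 to 0.0185), and Cd70 in 11 of 17. With the constant of 16 added, Cd70 rose by 0.98 at an adjusted p of 0.0501. In no alternative did a ligand gene pass for a strain difference or a difference in response.

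The number of ligand genes called within a strain depended on the setting. In NOD.Idd3 it was 0, and 2 with the replicate block, 2 with the variance trend, 1 after genes below the 40th percentile of mean level were dropped, 1 with the mean of all probe sets, 2 without _x_at and _s_at probe sets, 1 with only the 4 arrays compared, and 0 to 1 without 1 array. In NOD it was 2, and 3 with the replicate block, the variance trend, the filter at the 40th percentile or the further quantile normalization, where Cd70 was added, 0 with the array-name suffix term, 1 with the constant of 16 added, 0 with only the 4 arrays compared, and 0 to 3 without 1 array. Over all genes the replicate block raised the counts called to 3082 averaged, 1207 in NOD.Idd3 and 1586 in NOD, against 2049, 572 and 717, and to 27 for the averaged strain difference, against 0. Leaving out 1 array gave 1111 to 1299 for the averaged effect in the 4 cases that moved it by over 1.5 times, 56 to 300 in NOD.Idd3 when an array of that strain was left out, and in NOD 442 and 77 without the NOD arrays with PGN (replicates 1 and 2) and 103 without replicate 2 of unstimulated NOD. The array-name suffix term gave 235 in NOD.Idd3, and only the 4 arrays compared gave 416 in NOD. The block changed no other call of a ligand gene than those given above. The cause of these changes was not tested, other than fewer arrays or genes by construction.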
